A study of Mus musculus with 10 samples.

Results

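The genes of the proteasome, the particle that degrades ubiquitin-tagged proteins, were compared in cultured peritoneal macrophages between 5 libraries of control mice (CTR) and 5 libraries of Mac-GsαKO mice (KO). Members were all protein-coding genes named Psma, Psmb, Psmc, Psmd, Psme, Psmf or Psmg plus a number, which gave 48 of the 53465 genes in the deposited count table. Of these, 47 passed the filter on low counts, and Psmb11, the subunit of the thymus, had no count in any library. Members were chosen by symbol and not by value. The family itself was put forward with results of the same comparison known, so the counts below are a description and support nothing further. Per its name the KO line lacks Gsα, the stimulatory G protein subunit encoded by Gnas, in macrophages. Which promoter drives the deletion, and the strain, are not stated in the labels. Mice of both groups were 6 to 8 weeks old, and their macrophages were grown in culture medium with serum and no further agent. The labels do not state that each library came from its own mouse, so the spread behind each error and p-value is that between libraries and may be technical.

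The proteasome consists of a barrel-shaped core particle, closed at its ends by rings of alpha subunits (Psma) and holding rings of beta subunits (Psmb) in the middle, and of a regulatory particle that caps it. Within the beta rings Psmb5, Psmb6 and Psmb7 carry the proteolytic sites, with chymotrypsin-like, caspase-like and trypsin-like activity. Interferon induces the counterparts Psmb8, Psmb9 and Psmb10, which replace them to form the immunoproteasome, known in macrophages for making peptides for MHC class I. The regulatory particle unfolds substrates with a ring of ATPases (Psmc) and binds and trims ubiquitin chains with further subunits (most Psmd genes), while Psmg proteins and some Psmd proteins act as assembly chaperones.

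Library totals ranged from 15664243 to 19235777 counts, and values are given in CPM, that is, counts after TMM scaling of the libraries to the same total. A count of 0 allows a level of up to 3 counts, which is 0.154 CPM in the deepest scaled library and 0.203 CPM in the shallowest. Gnas had 359 to 491 CPM in the CTR libraries and 37.0 to 43.5 CPM in the KO libraries, so the labels of all 10 libraries matched their Gnas level. The macrophage markers Adgre1 (649 to 912 CPM) and Cd68 (2634 to 3115 CPM) were high in every library. Over all genes CTR 4 and CTR 5 stood apart from the other CTR libraries on the first principal component, both at -34.7. There CTR 1 to CTR 3 lay between -18.5 and -6.85, and the KO libraries between 11.6 and 28.7. On the second component CTR 4 stood at -46.7 and CTR 5 at 9.46, against 15.7 to 25.6 in CTR 1 to CTR 3. Counts of calls that moved without CTR 4 and CTR 5 are also given.

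Of the 47 members tested, 7 fell in KO, 0 rose and the other 40 did not pass the threshold, an adjusted p under 0.05 (edgeR quasi-likelihood test, Benjamini-Hochberg over all genes tested). The members that fell were Psmb5, Psmb2 and Psmb3 of the core and Psmc4, Psmd4, Psmd13 and Psmd14 of the regulatory particle. They made up 14.9% of the 47 members, where 2.11% of the 13203 genes tested fell, 1.83% rose and 3.94% did either. At an unadjusted p under 0.05, 27 members were lower and 0 higher, or 57.4% of members against 11.9% of all genes tested for the lower side and 10.0% for the higher side. The fitted log2 ratio of KO over CTR was below 0 in 43 of 47 members (91.5%, against 50.8% of all genes). Its median was -0.25, against -0.006 over all genes tested. In 15 members (31.9%) every KO library lay below every CTR library, which held for 4.55% of all genes, and no member had every KO library above every CTR library, which held for 3.25%. DESeq2 and limma voom each called 14 members lower and 0 higher, where they called 5.23% and 6.76% of all genes lower. The members were shorter than the genes tested at large, with a median length of 3841 against 5554 bases. After a correction for gene length and GC content 7 members were called (Psmc3 in and Psmd14 out, at an adjusted p of 0.0610), where 2.65% of all genes were called lower, and with the replicate number as a block 2 were, where 0.341% were.

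Summed over all members, the level was 4352 ± 382 CPM in CTR (SD, n = 5) and 3755 ± 140.0 CPM in KO (SD, n = 5), with CTR libraries from 3966 to 4797 and KO libraries from 3546 to 3904. Thus the summed level of each KO library lay below that of each CTR library. Since these were bulk samples, fewer cells of a type and less RNA per cell cannot be told apart. The size of the differences depended on CTR 4 and CTR 5, and the number of calls on several libraries. Without CTR 4 and CTR 5 the median of the members was -0.14, 40 of 47 were below 0, and 6 fell, all but Psmd14 of the 7, where 3.63% of all genes fell. Leaving out CTR 3, KO 1, KO 2 or KO 4 left 2 members called, where 66, 79, 30 and 72 of all genes tested fell. Leaving out CTR 5 or KO 3 left 4, where 211 and 166 of all genes fell. With all libraries 279 genes fell, so the calls over all genes dropped as well.

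**Figure D1:**
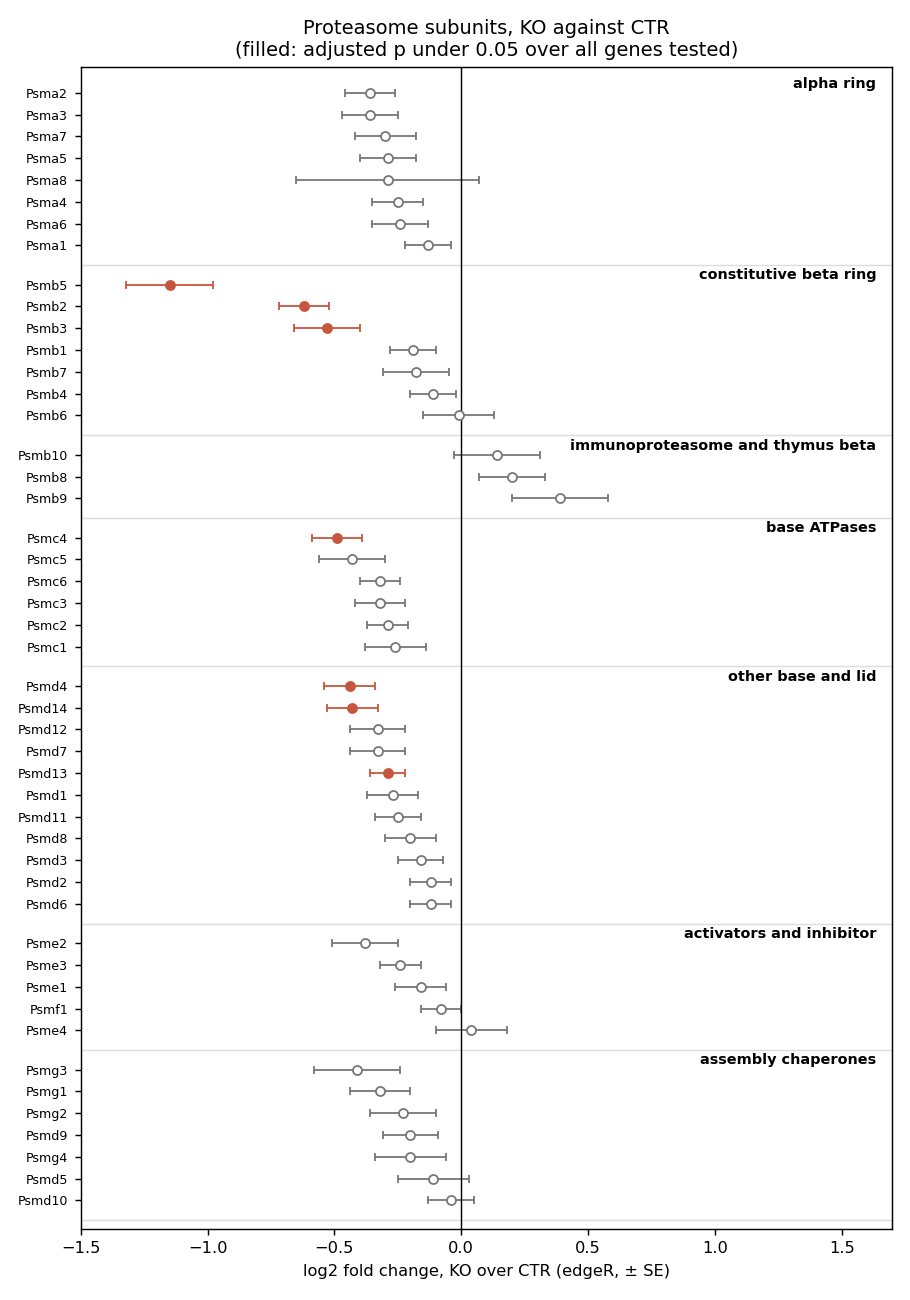
Each point is a proteasome gene, grouped by class, with its log2 fold change of KO over CTR on the horizontal axis and its standard error as a bar; filled points had an adjusted p under 0.05. The 7 filled points lie between -1.15 (Psmb5) and -0.29 (Psmd13), and the 3 expressed inducible subunits lie to the right of 0.

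Among the 7 constitutive beta subunits 3 fell, and they included the chymotrypsin-like subunit but neither of the other catalytic subunits. Psmb5 (ENSMUSG00000022193) stood at 70.4, 83.9, 84.3, 109.9 and 59.4 CPM in CTR 1 to CTR 5 and at 33.7, 31.1, 36.0, 49.9 and 33.1 CPM in KO 1 to KO 5. The groups did not overlap, with CTR 5 the lowest CTR library and KO 4 the highest KO library. Its log2 fold change (KO over CTR) was -1.15 (SE 0.17, adjusted p = 0.00826 by edgeR), or 2.22-fold lower, from 81.6 ± 18.9 to 36.8 ± 7.55 CPM (SD, n = 5 each). This was the largest fitted difference of the 47 members tested. Psmb2 (ENSMUSG00000028837), a beta subunit without a proteolytic site, stood at 90.5, 83.3, 80.8, 87.7 and 87.5 CPM in CTR and at 66.9, 48.0, 51.6, 53.4 and 59.3 CPM in KO, in the order of the library numbers. All 5 CTR libraries lay close together and above all KO libraries, and the log2 fold change was -0.62 (SE 0.10, adjusted p = 0.00977 by edgeR). Psmb5 and Psmb2 passed the threshold in each of the 20 other settings tried, with adjusted p up to 0.0329 for Psmb5 and 0.0370 for Psmb2. Without CTR 4 and CTR 5 their log2 fold changes were -1.11 and -0.60.

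Psmb3 (ENSMUSG00000069744), also a structural beta subunit, stood at 68.4, 72.8, 74.2, 91.8 and 109 CPM in CTR and at 59.7, 51.5, 59.8, 55.5 and 61.5 CPM in KO. The groups did not overlap, and CTR 4 and CTR 5 were the highest. Its log2 fold change was -0.53 (SE 0.13, adjusted p = 0.0406 by edgeR), and -0.32 (adjusted p = 0.0302) without CTR 4 and CTR 5. The call was lost when any 1 of CTR 3, CTR 5 or the 5 KO libraries was left out, with adjusted p up to 0.118.

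The other 4 constitutive beta subunits did not pass the threshold. Psmb6, the caspase-like subunit, stood at 299, 252, 295, 419 and 439 CPM in CTR and at 343, 345, 340.0, 359 and 303 CPM in KO. The KO libraries lay inside the CTR range, and CTR 4 and CTR 5 were again the highest. Its log2 fold change was -0.01 (SE 0.14, adjusted p = 0.974 by edgeR), and 0.26 (adjusted p = 0.0845) without CTR 4 and CTR 5. Psmb7, the trypsin-like subunit, had 92.0 ± 18.2 CPM in the CTR libraries and 81.1 ± 6.75 CPM in the KO libraries (SD, n = 5 each), with a log2 ratio of -0.18 (SE 0.13, adjusted p = 0.438 by edgeR) and 0.03 without CTR 4 and CTR 5. Psmb7 overlaps Nek6 on the opposite strand, and the labels do not state whether counting used the strand, so reads of such pairs cannot be told apart. Psmb1 and Psmb4 had log2 ratios of -0.19 and -0.11. Over the class the median was -0.19 with 7 of 7 values below 0, and -0.11 with 4 of 7 below 0 without CTR 4 and CTR 5.

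**Figure D2:**
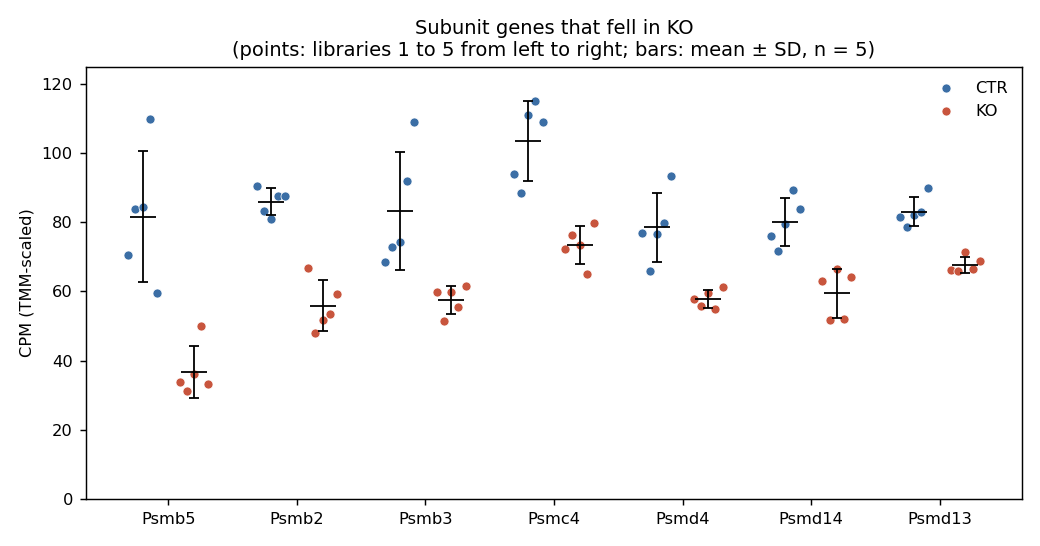
Points give the CPM of the 7 genes that fell, for libraries 1 to 5 of CTR and KO from left to right, and bars give the mean ± SD (n = 5). In each gene all KO points lie below all CTR points, such as 31.1 to 49.9 against 59.4 to 109.9 CPM in Psmb5.

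The promoter stretches of 2 of these genes are shown for the letters TGACG. Of the 40 members with a promoter in the RefSeq table (GRCm38.p6), 16 hold these letters. TGACG is a half-site of the cAMP response element, the sequence bound by CREB downstream of Gsα and cAMP. Every stretch printed here and below holds TGACG. Those of Psmd4 and Psmd14, which fell and do not hold it, are not shown. Each stretch is the 250 bases before the start site, written 5′ to 3′ in the direction of the gene, with matches in capitals. The letters searched, on both strands, were TGACG, TGACNNNGC (the antioxidant response element, bound by Nfe2l1 and Nfe2l2), CCAAT, GAAA followed by any 2 bases and GAAA again (bound by interferon regulatory factors) and TTCNNNGAA (bound by STAT factors). In Psmb5 (chr14:54617996-54618245, minus strand) TGACG and the antioxidant element share bases and begin 47 bases before the start site. In Psmb3 (chr11:97703184-97703433, plus strand) TGACG begins 100 bases before the start site, with CCAAT matches at 85 and 43 bases and an interferon regulatory factor match at 163 bases.
Psmb5: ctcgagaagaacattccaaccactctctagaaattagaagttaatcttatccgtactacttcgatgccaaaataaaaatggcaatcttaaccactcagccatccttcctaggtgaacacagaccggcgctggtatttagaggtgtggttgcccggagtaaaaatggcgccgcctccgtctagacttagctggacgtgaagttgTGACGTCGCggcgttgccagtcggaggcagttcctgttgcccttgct
Psmb3: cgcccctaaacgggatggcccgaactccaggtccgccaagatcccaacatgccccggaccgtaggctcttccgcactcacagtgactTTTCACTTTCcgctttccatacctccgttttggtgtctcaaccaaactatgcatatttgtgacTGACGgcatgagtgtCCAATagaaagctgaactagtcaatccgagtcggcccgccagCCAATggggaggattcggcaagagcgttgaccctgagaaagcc
Of the members with a promoter, 40.0% held TGACG, against 17.8% of all 32851 promoter windows and 26.7% of the windows of tested genes. Here and for the other letters, shares of members are per gene, where a match in any window counts, and the other shares are per window. By window, TGACG stood in 17 of the 43 windows of members. The antioxidant element stood in 5 members (Psmb5, Psmb6, Psmc6, Psmd12 and Psmd9), or 12.5% against 10.2% of all windows and 11.8% of those of tested genes. CCAAT stood in 35.0% of the members against 33.8% of all windows and 35.6% of those of tested genes. For the interferon regulatory factor letters these shares were 7.50%, 2.98% and 2.83%, and for the STAT letters 5.00%, 7.02% and 5.85%. Among the 7 genes that fell, 6 had a promoter in the table, and 4 of these (Psmb5, Psmb3, Psmc4 and Psmd13) held TGACG. Of the same 6, CCAAT stood in 3, the interferon regulatory factor letters in 2, the antioxidant element in 1 and the STAT letters in 0. Psmb6, with a log2 ratio of -0.01 that did not pass the threshold, also held TGACG, at 58 and 9 bases before the start site. A match is a description of the letters, and binding was not measured.

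No alpha ring gene passed the threshold, although all 8 had fitted differences below 0, with a median of -0.29. The alpha subunits form the gate of the core. Psma1 had the value nearest 0, at -0.13 (SE 0.09, adjusted p = 0.390 by edgeR), from 133 ± 14.4 to 122 ± 4.76 CPM (SD, n = 5 each), with CTR 4 at 158 CPM above all other libraries. At the other end Psma3 had a log2 ratio of -0.36 (SE 0.11, adjusted p = 0.0722 by edgeR), and its libraries stood at 37.8, 36.7, 37.8, 47.2 and 41.6 CPM in CTR and at 32.5, 27.4, 33.7, 27.7 and 34.9 CPM in KO. Its groups did not overlap, and this was also so for Psma2 and Psma7. At an unadjusted p under 0.05, 6 alpha genes were lower, and DESeq2 and limma voom each called 2. The class median was -0.13 without CTR 4 and CTR 5. Psma8, the subunit of the testis, was the lowest of the class, with 2.02 ± 1.15 CPM over the CTR libraries and 1.63 ± 0.470 CPM over the KO libraries (SD, n = 5 each).

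The inducible subunits went the other way in value, without passing the threshold. Psmb8, the counterpart of Psmb5, stood at 127, 138, 95.0, 136 and 153 CPM in CTR and at 169, 141, 138, 173 and 127 CPM in KO. These groups overlapped, and the log2 fold change was 0.20 (SE 0.13, adjusted p = 0.393 by edgeR). Psmb9, the counterpart of Psmb6, stood at 33.6, 46.3, 26.7, 33.0 and 40.1 CPM in CTR and at 53.9, 37.6, 41.3, 66.7 and 36.8 CPM in KO, with a log2 ratio of 0.39 (SE 0.19, adjusted p = 0.240 by edgeR). Here KO 4 and KO 1 were high and the other KO libraries lay among the CTR libraries. Psmb10, the counterpart of Psmb7, stood at 61.2, 93.6, 57.3, 72.1 and 87.6 CPM in CTR and at 104, 70.5, 78.2, 93.5 and 64.6 CPM in KO, with a log2 ratio of 0.14 (SE 0.17, adjusted p = 0.643 by edgeR). These 3 genes and Psme4 were the 4 members with a value above 0, and the 3 stayed above 0 in each of the 20 other settings, with adjusted p from 0.0830 to 0.906. DESeq2 and limma voom called 0 of the 3, and 0 had an unadjusted p under 0.05. KO 4, KO 1 and CTR 2 were the 3 highest libraries for Psmb9 and Psmb10, and also for Irf1, Nlrc5 and Tapbp of the interferon and class I route, which were named after their values were seen. For Psmb8 the 3 highest were KO 4, KO 1 and CTR 5.

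**Figure D3:**
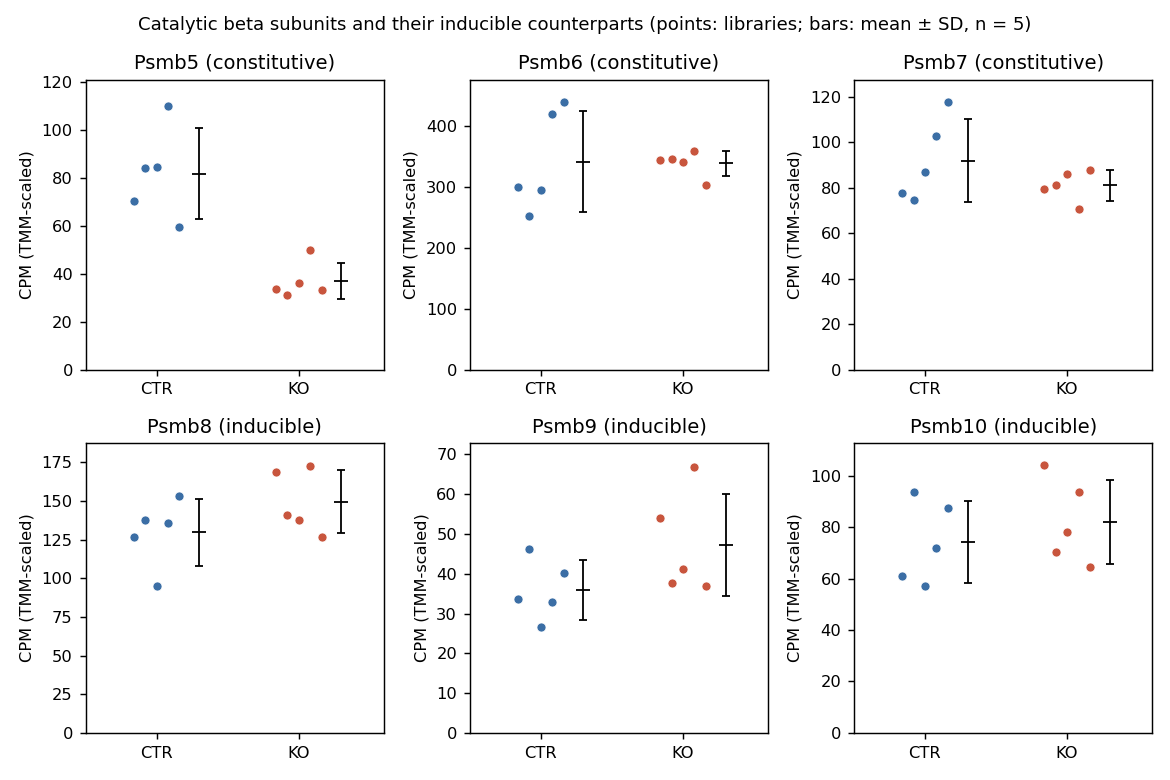
Panels show CPM by library for the 3 constitutive catalytic subunits (upper row) and their inducible counterparts (lower row), with the mean ± SD (n = 5) beside the points. CTR and KO separate in Psmb5 and overlap in the other 5 genes.

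Psmb9 overlaps Tap1, which carries peptides into the endoplasmic reticulum for class I loading, on the opposite strand, so reads of the pair cannot be told apart without the strand setting. Tap1 had 94.8 ± 34.9 CPM in CTR and 155 ± 58.3 CPM in KO (SD, n = 5 each), with a log2 ratio of 0.71 (SE 0.28, adjusted p = 0.161 by edgeR). The promoter of Psmb9 (chr17:34187331-34187580, minus strand) is shown for comparison with those of the genes that fell. It holds TGACG on the other strand, 144 bases before the start site, and a CCAAT match 8 bases before it, and the interferon regulatory factor and STAT letters are not in this window.
Psmb9: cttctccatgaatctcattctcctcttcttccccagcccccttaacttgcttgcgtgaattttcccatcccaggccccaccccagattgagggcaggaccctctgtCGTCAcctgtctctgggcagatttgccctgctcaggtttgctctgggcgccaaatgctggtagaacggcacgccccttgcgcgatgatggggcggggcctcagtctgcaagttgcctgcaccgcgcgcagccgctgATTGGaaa
Thus TGACG also stood before a gene whose value lay above 0 without passing the threshold.

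Since inducible and constitutive subunits take the same place in the ring, their counts were also set against each other within a library, which needs no scaling between libraries. Psmb8 counts per Psmb5 count were 1.80, 1.65, 1.13, 1.24 and 2.58 in CTR and 5.02, 4.52, 3.83, 3.47 and 3.83 in KO. Every KO library lay above every CTR library, at a mean of 4.13 ± 0.623 against 1.68 ± 0.576 (SD, n = 5 each), or 2.46 times as high. Most of this repeats the fall of Psmb5, which was 2.22-fold lower in KO. Psmb8 itself was 1.15-fold higher, did not pass the threshold and overlapped between the groups. Psmb9 per Psmb6 was 0.111 ± 0.0424 in CTR and 0.139 ± 0.0317 in KO, and Psmb10 per Psmb7 was 0.830 ± 0.243 and 1.03 ± 0.270 (SD, n = 5 each), and for both the groups overlapped. These ratios are of reads and not of protein, and they depend on the lengths of the transcripts.

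**Figure D4:**
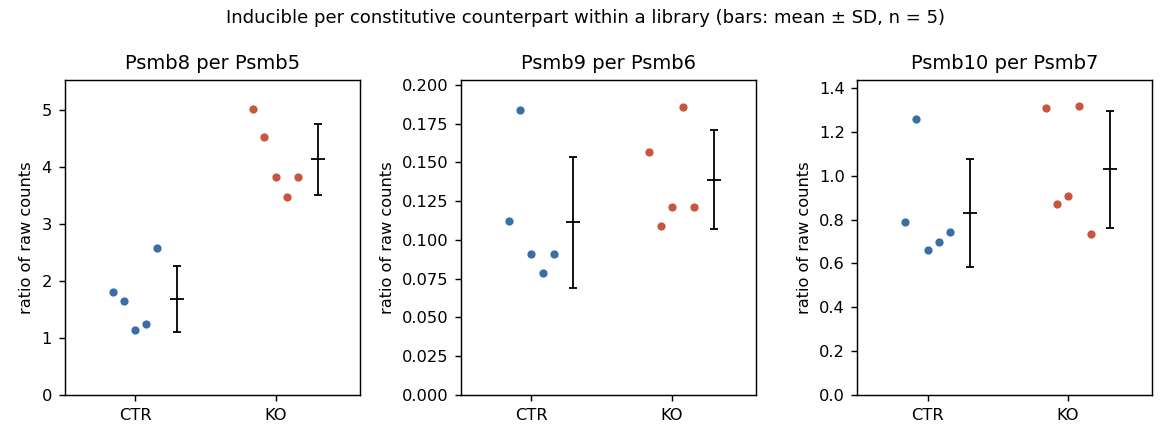
Points give, for each library, the raw counts of an inducible subunit divided by those of its constitutive counterpart, with the mean ± SD (n = 5). Psmb8 per Psmb5 runs from 1.13 to 2.58 in CTR and from 3.47 to 5.02 in KO, while the other 2 ratios overlap.

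In the base of the regulatory particle all 6 ATPase genes had values below 0, with a median of -0.32, and 1 passed the threshold. Psmc4 (ENSMUSG00000030603) stood at 93.9, 88.5, 111, 115 and 109 CPM in CTR and at 72.4, 76.3, 73.3, 65.0 and 79.9 CPM in KO. The groups did not overlap, and the log2 fold change was -0.49 (SE 0.10, adjusted p = 0.0205 by edgeR). The call was lost without CTR 3, KO 1, KO 2 or KO 4, with an adjusted p of at most 0.0614. Psmc2, Psmc5 and Psmc6 did not overlap between the groups either, at adjusted p of 0.0749, 0.0792 and 0.0526. DESeq2 called 5 of the 6 ATPases and limma voom 4. The value nearest 0 was that of Psmc1, at -0.26 (SE 0.12, adjusted p = 0.216 by edgeR), and it was -0.09 without CTR 4 and CTR 5. In the promoter of Psmc4 (chr7:28050093-28050342, minus strand), shown as that of the ATPase that fell, TGACG stands on the other strand 51 bases before the start site.
Psmc4: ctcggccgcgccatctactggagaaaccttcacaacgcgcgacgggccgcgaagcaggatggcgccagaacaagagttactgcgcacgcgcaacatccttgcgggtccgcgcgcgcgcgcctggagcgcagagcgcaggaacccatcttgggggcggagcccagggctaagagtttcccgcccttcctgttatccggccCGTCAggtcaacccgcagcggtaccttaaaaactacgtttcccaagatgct
None of the other 4 sets of letters is in this window.

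Of the 11 other base and lid genes 3 fell, with a class median of -0.27, and all 11 had values below 0. Psmd4, a ubiquitin receptor, stood at 76.9, 65.8, 76.6, 79.8 and 93.3 CPM in CTR and at 57.7, 55.7, 59.6, 55.0 and 61.2 CPM in KO, with a log2 ratio of -0.44 (SE 0.10, adjusted p = 0.0293 by edgeR). Psmd14, the deubiquitinase of the lid, stood at 76.1, 71.6, 79.5, 89.3 and 83.8 CPM in CTR and at 62.9, 51.6, 66.4, 51.9 and 64.3 CPM in KO, with a log2 ratio of -0.43 (SE 0.10, adjusted p = 0.0384 by edgeR). In both genes all KO libraries lay below all CTR libraries. Without CTR 4 and CTR 5 Psmd14 had an adjusted p of 0.0570. Psmd13, a lid subunit, stood at 81.5, 78.6, 82.0, 83.1 and 90.0 CPM in CTR and at 66.2, 65.9, 71.3, 66.4 and 68.9 CPM in KO. This was the smallest difference of the 7, at -0.29 (SE 0.07, adjusted p = 0.0443 by edgeR), and of the 10 fits that left out 1 library only that without CTR 4 kept it, with adjusted p up to 0.126. Psmd4 lost its call without CTR 3, KO 1, KO 2, KO 3 or KO 4, reaching 0.0906,, and Psmd14 without CTR 1, CTR 3, CTR 5, KO 1, KO 2 or KO 4, reaching 0.109. Psmd2, a scaffold of the base, had the value nearest 0 in the class, at -0.12 (SE 0.08, adjusted p = 0.391 by edgeR).

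Psmd13 shares its locus with Gm15542, a processed pseudogene on the same strand, which fell from 51.4 to 36.7 CPM (log2 fold change -0.48, adjusted p = 0.0195 by edgeR). How reads were split between them is not stated in the labels, so the level of Psmd13 is uncertain. Psmb5 and Psmc4 had no such partner with more than 1 count.

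The activators and the inhibitor, which bind the core in place of the regulatory particle or block it, held no gene past the threshold, while 2 of the 5 were lower at an unadjusted p under 0.05. Psme1 and Psme2, the subunits of the interferon-induced activator, had log2 ratios of -0.16 (SE 0.10, adjusted p = 0.377 by edgeR) and -0.38 (SE 0.13, adjusted p = 0.113). Thus their values lay below 0 while those of the inducible beta subunits lay above it. Psme2 shares most of its sequence with Psme2b, which had 1224 to 1686 counts per library, so its level is uncertain. Psme3, the nuclear activator, had a log2 ratio of -0.24 (SE 0.08, adjusted p = 0.121), and limma voom called it. Psme4, the large activator, had 63.0 ± 12.5 CPM over CTR and 64.6 ± 7.04 CPM over KO libraries (SD, n = 5 each), with a log2 ratio of 0.04 (SE 0.14, adjusted p = 0.899) and -0.14 without CTR 4 and CTR 5. The inhibitor Psmf1 varied little, with 42.2 ± 1.20 CPM over CTR and 39.8 ± 2.52 CPM over KO libraries (SD, n = 5 each), with a log2 ratio of -0.08 (SE 0.08, adjusted p = 0.559).

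All 7 assembly chaperone genes had values below 0, with a median of -0.20, and none passed the threshold by edgeR, DESeq2 or limma voom. At an unadjusted p under 0.05, 2 were lower. Psmg3 lay lowest, at -0.41 (SE 0.17, adjusted p = 0.169 by edgeR), from 12.4 ± 2.50 to 9.26 ± 1.68 CPM (SD, n = 5 each), and Psmd10 nearest 0, at -0.04 (SE 0.09, adjusted p = 0.815). Psmg1 was the member of the class in which the groups did not overlap, with 9.49 ± 0.921 CPM in CTR and 7.61 ± 0.751 CPM in KO (SD, n = 5 each). Without CTR 4 and CTR 5 the class median was -0.06 and 6 of 7 values were below 0, as were 6 of 7 with the length and GC correction.

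The libraries differed in the level of the family. As the median over members of the log2 ratio to the CTR mean, CTR 1 to CTR 5 stood at -0.12, -0.10, -0.07, 0.14 and 0.14, and KO 1 to KO 5 at -0.18, -0.33, -0.18, -0.31 and -0.19. All KO libraries lay below all CTR libraries, and CTR 4 and CTR 5 lay above the rest. CTR 4 was the highest CTR library in 18 members and CTR 5 in 23. The median coefficient of variation of the members was 12.3% in CTR and 8.04% in KO, against 18.7% and 12.7% over all genes tested. Over CTR 1 to CTR 3 that of the members was 5.68%, and the value of all genes over these libraries was not computed. Against CTR 1 to CTR 3 alone, all KO libraries lay below in 17 of the 47 members tested, where 9.88% of all genes tested lay below. They lay above in 1 member, Psmb6, at 303 to 359 CPM in KO against 299, 252 and 295 CPM in CTR 1 to CTR 3. The share of all genes that lay above was not counted, so this count of 1 has no comparison and is no result about the members. CTR 5 also had the highest summed level of 5 fibroblast markers (137 CPM, against 30.1 to 63.5 in the other CTR and 48.6 to 65.3 in the KO libraries) and of 4 mesothelial markers (45.6 CPM, against 5.08 to 23.8 and 14.7 to 22.0). The summed level of 9 macrophage markers ran from 30507 to 38789 CPM in CTR and from 14969.5 to 16417 CPM in KO, most of it from Lyz2 (24310.2 to 33295 and 8722 to 10033 CPM). Of these 9 markers Lyz2 fell, Csf1r (796 to 1038 CPM in CTR, 1152 to 1397 CPM in KO) and Itgam (256 to 478 and 489 to 766 CPM) rose, 5 had values above 0, and the median log2 ratio was 0.07. That of 5 neutrophil markers ran from 17.9 to 23.7 CPM in CTR and from 9.99 to 15.8 CPM in KO, nearly all of it from S100a8 (17.5 to 23.4 and 9.89 to 15.6 CPM), with Ly6g at 0 in all libraries. Mast cell markers summed to 0.637 to 21.2 CPM, and those of B cells, T and NK cells, eosinophils, dendritic and red blood cells to at most 9.27 CPM in any library. The part of these in the level of the members was not tested.

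**Figure D5:**
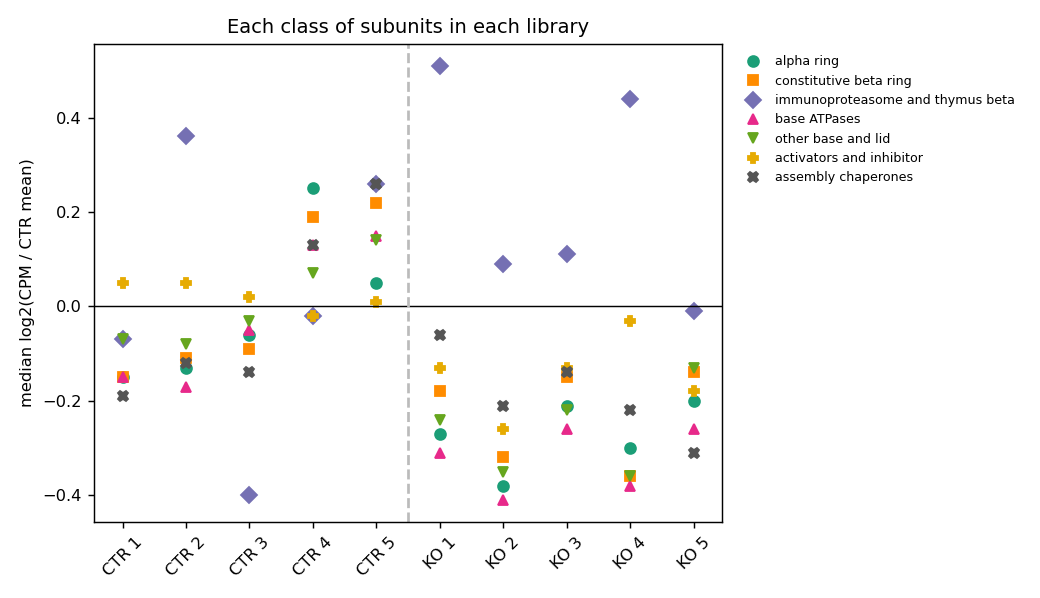
Points give, for each of the 10 libraries, the median over the genes of a class of the log2 ratio to the CTR mean, with KO libraries right of the dashed line. CTR 4 and CTR 5 lie highest for the core rings and the regulatory particle, while the inducible beta subunits are highest in KO 1 (0.51) and KO 4 (0.44).

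Per length, the subunits of the core were unequal. On the length used by the authors, Psmb6 stood at 109.7 ± 26.8 CPM per kilobase in CTR and Psmb5 at 53.6 ± 12.4 (SD, n = 5 each), and in KO at 109 ± 6.70 and 24.2 ± 4.96. The alpha genes Psma1 to Psma7 ranged from 6.43 (Psma3) to 54.3 (Psma6) in CTR. Those lengths are long for several genes, such as 3107 bases for Psmb6, whose principal transcript in GENCODE M21 has 798 bases. On the principal transcript the levels of Psmb6 and Psmb5 were 427 and 90.7 CPM per kilobase in CTR, and Psma1 to Psma7 ranged from 14.1 (Psma3) to 137 (Psma7). Psmb6 was thus above Psmb5 on both lengths and Psma3 the lowest of the 7, while the highest alpha gene changed with the length.

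Genes that work with the proteasome, in 4 lists of 40 genes in all of which 39 were found, held 0 called by edgeR in either direction. At an unadjusted p under 0.05, 5 of the 39 were higher and 7 lower, where 10.0% and 11.9% of all genes tested were. DESeq2 called 1 higher and 3 lower, where it called 599 and 690 of all 13203 genes tested. For limma voom these counts were 4 and 3, against 1026 and 893 of all genes. Without CTR 4 and CTR 5 edgeR called 2 lower, where 3.63% of all genes fell. These were Rad23b of ubiquitin delivery (-0.35, adjusted p = 0.0234) and Erap1 of the class I route (-0.32, adjusted p = 0.0484), both named after their values were seen. The median of the 39 genes was -0.03 with all libraries and -0.06 without CTR 4 and CTR 5. Among the 10 proteasome-associated genes found, 8 had values below 0, with a median of -0.25. These included Pomp, the maturation factor of the core (-0.24, adjusted p = 0.131 by edgeR), the deubiquitinases Uchl5 (-0.31, adjusted p = 0.0881) and Usp14 (-0.27, adjusted p = 0.132), the small lid subunit Sem1 (-0.41, adjusted p = 0.234) and the ubiquitin receptor Adrm1 (-0.12, adjusted p = 0.631).

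Among the 6 genes that control proteasome transcription, Nfe2l1, the factor that raises subunit genes when proteasome activity is low, had a log2 ratio of 0.86 (SE 0.37, adjusted p = 0.205 by edgeR). It rested on KO 3, at 183 CPM against 45.3 to 54.4 in the other KO libraries, and was 0.24 (adjusted p = 0.446) without it. Ddi2, the protease that activates Nfe2l1, had 0.30 (adjusted p = 0.228), and Nfe2l2 had -0.03 (adjusted p = 0.891). Of the 14 genes of ubiquitin supply and delivery none was called by edgeR with all libraries (2 lower at an unadjusted p under 0.05), with values of -0.23 for Ubb, which encodes a chain of ubiquitin, and -0.13 for Vcp, the ATPase that extracts tagged proteins. The 9 genes of the interferon and class I route had a median of 0.33, with 7 values above 0, 3 of them higher at an unadjusted p under 0.05, and none called by edgeR with all libraries.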

How the data were processed

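RNA of cultured peritoneal macrophages was sequenced in 5 CTR and 5 KO libraries. The authors deposited raw counts for each Ensembl gene together with FPKM values. The FPKM served only to recover the gene lengths the authors used. Per the submitters' processing notes, CASAVA 1.8, HISAT2, SAMtools 1.3.1, edgeR and the build GRCm39 were used. The counter, the annotation release and any use of strand in counting are not given by the labels or notes. Of 53465 genes, 53274 were matched to a symbol, and the other 191 held 0.0403% of the counts.

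Genes were kept by filterByExpr (13203 genes), scaled by TMM and compared by the two-sided quasi-likelihood test of edgeR 4.0.16 in R 4.3.3, with genotype as the only term and Benjamini-Hochberg adjustment over all genes tested, at a threshold of 0.05. Standard errors were taken as the size of the log2 fold change divided by the root of the F statistic. Members, classes, gene lists and settings were chosen with earlier results of these data known. Named with values whatever their result were the catalytic and inducible beta subunits, the activators and inhibitor, every called member, the members of each class with the highest and the lowest value, and 11 related genes, not all of which are reported here. Tap1, Gm15542 and the interferon genes named by library were chosen after their values were seen. Principal transcript lengths (GENCODE M21) were added after the authors' lengths were seen. Limits for a count of 0 cover counting error only, since reads that carry no molecular identifier may come from a single molecule. Promoters are those of RefSeq on GRCm38.p6, another build than the authors', and no other coordinates are given. The fit was tested on simulated data. Other settings used DESeq2 1.42.0, limma 3.58.1 and mgcv 1.9.3.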

Additional observations from a re-analysis of the deposited data

Results flagged for a closer look

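In 4 of 68 groups of 5 libraries the highest or lowest library was far from the others of its genotype, measured as its gap to the nearest library over the whole range. Chance alone marks about 1 group in 20. For Psma1, CTR 4 stood at 158 CPM, against 123 to 133 CPM in the other CTR libraries. For Psmb5, KO 4 stood at 49.9 CPM, against 31.1 to 36.0 CPM in the other KO libraries, and still below the lowest CTR library at 59.4 CPM. Nfe2l1 stood out in both genotypes, at 25.9 CPM in CTR 4, against 43.7 to 48.3 CPM, and at 183 CPM in KO 3, against 45.3 to 54.4 CPM.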

How the results depend on the processing

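Of the 23 members named by rule, Psmb5 and Psmb2 kept their call in each of the 20 other settings, Psmc4 in 15, Psmd4 in 14, Psmb3 and Psmd14 in 10 and Psmd13 in 8. The number of genes called, 520, was 1289 with DESeq2, 1919 with limma voom, 261 without a filter on low counts, 104 with the replicate number as a block, 1185 without CTR 4 and CTR 5 and between 62 and 868 with each library left out in turn. The number of members called, 7, was 14 with DESeq2, 14 with limma voom, 4 without a filter, 2 with the block (Psmb5 and Psmb2) and between 2 and 7 with a library left out. The median of the members, -0.25, was -0.14 without CTR 4 and CTR 5 and between -0.28 and -0.20 with 1 library left out.

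None of the values that changed sign had passed the threshold. Psmb6 was 0.03 with library-size scaling, 0.02 with the length and GC correction, 0.19 with limma voom, 0.02 with the replicate block, 0.26 without CTR 4 and CTR 5 and between -0.10 and 0.10 with a library left out. Psmb7 was 0.03 without CTR 4 and CTR 5. Psmd10 was 0.08 with the length and GC correction, 0.01 with limma voom and 0.01 without CTR 4 and CTR 5. Psme4 was -0.09 with limma voom, -0.14 without CTR 4 and CTR 5 and between -0.03 and 0.13 with a library left out. The cause of these changes was not tested. Library-size scaling made 59.4% of calls higher, against 46.3% with TMM, and called 5 members. Replicate numbers gave no sign of pairing: the correlation of residuals across genes, for libraries of the same number, ran from -0.126 to 0.0582, and 0 of 10 libraries correlated best with its own number. With 15664243 to 19235777 counts per library, the members had a median level of 70.9 CPM, and counting error is larger relative to the level in low members such as Psma8.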
